A study of Homo sapiens with 4 samples.

Results

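The comparison described here sets RNA taken after 96 h of puromycin selection against RNA taken after 48 h of selection in PC3 cells, a human prostate cancer cell line. Its members are all 4 arrays of the series, 2 at each time point, and they were chosen by the time point in their labels. Cells had been infected for 48 h with a lentivirus carrying an shRNA against ALKBH3 or the control shRNA, which targets GFP, and were then selected with puromycin. Each time point therefore holds 1 array with control shRNA and 1 with ALKBH3 shRNA, so the knockdown is balanced between the times. Neither the ALKBH3 shRNA sequence in use nor separate cultures for the 4 RNA samples can be read from the labels. The limma p-values set the time difference against how far it disagreed between the 2 shRNAs on these arrays, and not against a spread between replicate cultures. All cells carried a lentiviral shRNA and had passed through puromycin, and uninfected or unselected cells were not analysed here. The arrays of 48 h were on 1 slide and those of 96 h on another, so time point and slide are the same split and cannot be told apart.

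The measure was the single-colour Agilent signal of each probe, given below as a level, the log2 intensity minus that of the array's own 75th percentile. Of 19102 genes with a named probe, 14556 were tested, each through its brightest probe, and 14021 of these were well above background on all 4 arrays. The 75th percentile lay at an intensity of 2150 and 2286 at 48 h (control and ALKBH3 shRNA) and of 2340 and 2394 at 96 h. The median signal of the negative control spots moved with the split, from 47 and 52 at 48 h to 63 and 67 at 96 h, and its part in the results for dim genes was not tested. ALKBH3 itself, the targeted gene, had a level of -0.74 and -0.89 with control shRNA at 48 h and 96 h and of -2.48 and -2.41 with ALKBH3 shRNA, so its level was lower with ALKBH3 shRNA at both times. Keratin 18, keratin 19, CLDN4 and EPCAM, which mark epithelial cells, were well above background on all 4 arrays, and KLK3, which encodes prostate-specific antigen, was well above background on 0 arrays. Of 6 leukocyte markers tested 1 rose and 1 fell, the latter CD68 (log2 difference -0.62). Of 8 fibroblast and endothelial markers LUM and PECAM1 fell (-1.20 and -0.50), with LUM well above background on 3 arrays. COL1A2 and PDGFRB were well above background on 0 arrays. Of 5 markers of embryonic kidney cells, the kind in which the virus was made, GATA3 rose (0.49). Of all genes tested, 5.84% rose and 6.94% fell. The part of other cells in the results was not tested.

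Proliferating cells pass from G1 into S phase when E2F transcription factors are released from the retinoblastoma proteins and switch on the genes for origin licensing, nucleotide supply and the replisome. A later wave, driven by MYBL2, FOXM1 and the MuvB core, turns on the genes of spindle assembly, chromosome segregation and cytokinesis. Histone genes are transcribed in step with DNA synthesis, because new chromatin needs new histones. Cells under stress take another course: kinases that phosphorylate the initiation factor eIF2 lower general translation and raise ATF4, which induces genes of amino acid supply and, with CHOP, of growth arrest and cell death. Puromycin, the agent of the selection, kills cells without the vector by ending peptide chains early. In bulk RNA a change in the number of cells in a state and a change in the RNA per cell cannot be told apart.

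Most genes of cell division that were listed rose from 48 h to 96 h under both shRNAs. Smaller parts of the lists for the integrated stress response, sterol metabolism, epithelial junctions and the matrix fell, and most of their members were not called. In all, 850 of 14556 genes tested rose (5.84%) and 1010 fell (6.94%) in the limma fit with the shRNA as a term (adjusted p from 0.0236). Every gene called moved the same way under each shRNA, but the fit could call no other. Its spread is the difference between the time changes under the 2 shRNAs, which is too large where their signs are opposed. Of 439 other tested probes of the genes called, 390 had a difference in the same direction as the brightest (88.8%). Sizes could differ between the probes of a gene, and values below are of the brightest unless another is named. The sizes were moderate, with a median of 1.48-fold among the genes that rose and 1.51-fold among those that fell, and 21 that rose and 124 that fell changed at least 2-fold. Over all genes tested the median log2 difference was -0.01. The calls rest on that term: without it limma called 0 genes (smallest adjusted p 0.131, with 2678 genes at an unadjusted p under 0.05), the methods' t-test called 1, and with no filter on dim probes limma called 0. With arrays centred on the spike-in controls the median of all genes was 0.11, and 1459 genes rose and 682 fell. This turned the share of calls that were rises from 45.7% to 68.1%. The mean level of the spike-in controls changed by -0.22 from 48 h to 96 h with control shRNA and by -0.02 with ALKBH3 shRNA. It was 1.71 on the control array of 96 h and between 1.86 and 1.93 on the other arrays. The part of that control array in the changed share was not tested.

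**Figure D1:**
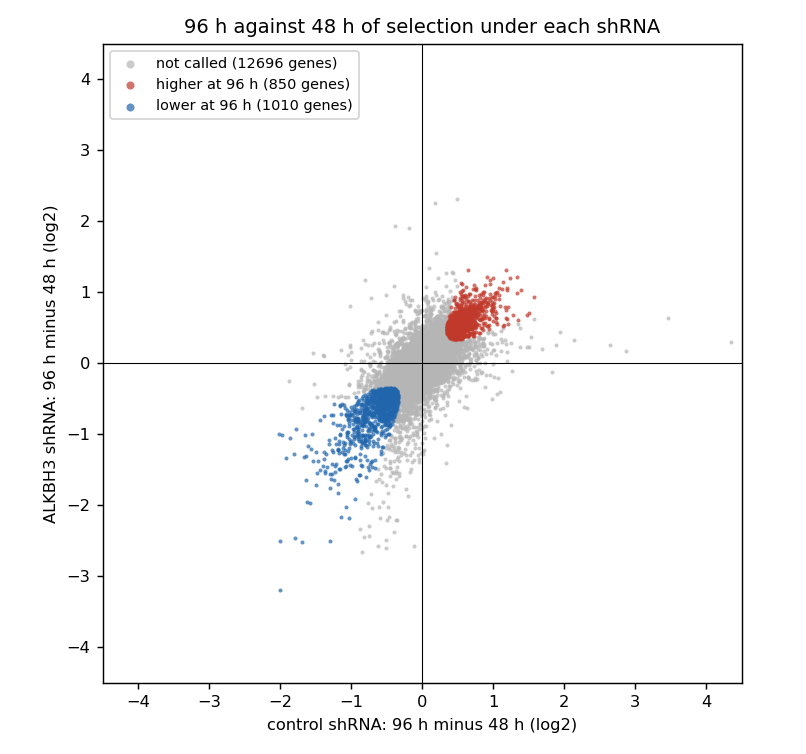
Each point is 1 of the 14556 genes tested, with the log2 difference of 96 h minus 48 h under control shRNA on the horizontal axis and under ALKBH3 shRNA on the vertical axis. The 850 genes called higher lie in the upper right and the 1010 called lower in the lower left, as the fit requires. Grey points far along 1 axis moved on 1 shRNA alone, most of them downward with ALKBH3 shRNA or upward with control shRNA.

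The differences under the control and the ALKBH3 shRNA had the same sign for 76.2% of genes and a Pearson r of 0.70 across genes, a description over 14556 genes that share the same pair of slides. The 2-fold limit was passed under each shRNA by 11 genes upward and 81 downward and in opposite directions by 0.

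DNA replication genes formed a nearly uniform group. Of 50 tested, 41 rose and 0 fell, against 5.84% and 6.94% of all genes, and the median log2 difference was 0.64 (0.64 with control and 0.62 with ALKBH3 shRNA). All 50 were higher at 96 h under each shRNA. MCM10, which helps load the polymerase at origins, had a level of -3.30 and -3.36 at 48 h (here and below control first, then ALKBH3 shRNA) and of -2.10 and -2.33 at 96 h. Its log2 difference was 1.11 (SE 0.08, n = 2 arrays a time, limma adjusted p 0.0236), or 2.17-fold. E2F2, a transcription factor of the S phase programme, went from -0.65 and -0.31 to 0.47 and 0.74, a difference of 1.09. For both genes the levels at 48 h and 96 h did not overlap. The same held for 7662 of the 14556 genes tested and for 1685 of the 1860 called, so it does not set these genes apart.

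The GINS complex, a part of the replicative helicase, showed the same course. GINS2 stood at -0.07 and 0.14 at 48 h and at 1.01 and 1.20 at 96 h (2.10-fold), and its partners GINS1, GINS3 and GINS4 rose by log2 differences of 0.53, 0.74 and 0.64. UHRF1, which carries DNA methylation across replication, went from 0.47 and 0.78 to 1.55 and 1.75 (2.03-fold). All 6 members of the MCM2 to MCM7 helicase rose, between 0.47 for MCM7 and 0.80 for MCM2. The enzymes of nucleotide supply RRM2 (0.88), TYMS (0.79) and RRM1 (0.64) rose, as did the licensing factors CDT1 (0.81) and ORC1 (0.70) and the sliding clamp PCNA (0.62). CDC6, CCNE1, TK1, LIG1, POLA2, POLD3, TIPIN, RPA2 and RPA3 were the 9 that were not called.

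The promoters of these genes are shown because the members that moved together can be read against the letters that E2F factors are known to bind. The motif was searched as TTTGGCGC, TTTCCCGC, TTTGCCGC or TTTCGCGC on both strands in the 250 bases before the most upstream RefSeq start. Of the 40 DNA replication genes with a promoter in the RefSeq table (GRCh38.p14), 15 held it (37.5%), against 4.27% of the 11605 tested genes and 2.79% of all 27305 genes in that table. It was in 8.06% of the 682 genes called higher and in 1.67% of the 777 called lower that had a promoter there. Capitals mark the motif in 100 bases before the start of GINS2 (chr16:85688955-85689054, minus strand), E2F2 (chr1:23531234-23531333, minus strand) and UHRF1 (chr19:4909401-4909500, plus strand), each written 5′ to 3′ along the gene. The windows of MCM10 and of MYBL2, a gene of the mitosis list, held 0 matches.
GINS2: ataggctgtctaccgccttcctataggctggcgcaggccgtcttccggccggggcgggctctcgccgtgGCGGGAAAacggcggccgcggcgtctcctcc
E2F2: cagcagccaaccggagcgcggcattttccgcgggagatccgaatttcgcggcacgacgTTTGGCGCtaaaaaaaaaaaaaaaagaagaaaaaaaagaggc
UHRF1: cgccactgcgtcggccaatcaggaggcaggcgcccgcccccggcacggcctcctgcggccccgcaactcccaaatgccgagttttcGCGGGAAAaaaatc
A match is a description of these letters and not a site shown to be bound.

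Mitosis genes rose with an even narrower spread of sizes. Of 53 tested, 50 rose and 0 fell, against 5.84% and 6.94% of all genes. The median log2 difference was 0.70 (0.69 with control and 0.69 with ALKBH3 shRNA). MYBL2, the transcription factor that opens the G2 and M phase wave, stood at -0.75 and -0.78 at 48 h and at 0.20 and 0.11 at 96 h (difference 0.93, SE 0.08, limma adjusted p 0.0236). CDCA3, a trigger of mitotic entry, went from 0.19 and -0.05 to 1.05 and 0.92. CDCA8, the chromosomal passenger protein borealin, went from 1.64 and 2.06 to 2.60 and 2.80, and the kinetochore subunit SPC24 from -4.03 and -3.77 to -3.04 and -3.04. In each of these 4 genes both 96 h levels lay above both 48 h levels, and 7662 of all 14556 genes had times that did not overlap.

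The members that rose span mitotic entry, the spindle and cytokinesis. The kinases CDK1 (0.78), TTK (0.81), PLK1 (0.75), BUB1 (0.71), AURKA (0.66) and AURKB (0.65) rose, as did the kinesins KIF20A (0.84), KIF4A (0.77) and KIF11 (0.62). FOXM1 (0.74), the proliferation marker MKI67 (0.74), the topoisomerase TOP2A (0.81) and the cyclins CCNB1 (0.61) and CCNB2 (0.54) were among them. The 3 not called were CDC25B, CKAP2 and BUB3. The largest difference on the list was 0.93, so no mitosis gene reached 2-fold.

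The CHR element TTTGAA, through which the MuvB core is known to reach such promoters, was searched on both strands in the same windows. It was in 22 of 46 mitosis genes (47.8%), 20 of 56 replication-dependent histone genes (35.7%) and 1 of 40 DNA replication genes (2.5%). The share was 8.9% of tested genes and 13.6% of all promoters in the table. CDCA3 and SPC24 had 0 matches to the CHR element. CCAAT was in 71.7% of the mitosis genes against 35% of tested genes. It was also in 57.5% of the DNA replication genes and 56% of the integrated stress response genes. CDCA8 is shown as the example (chr1:37692416-37692515, plus strand, GRCh38.p14), with the CHR element in capitals close before the start.
CDCA8: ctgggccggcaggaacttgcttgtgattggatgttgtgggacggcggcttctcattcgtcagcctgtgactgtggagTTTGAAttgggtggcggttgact

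**Figure D2:**
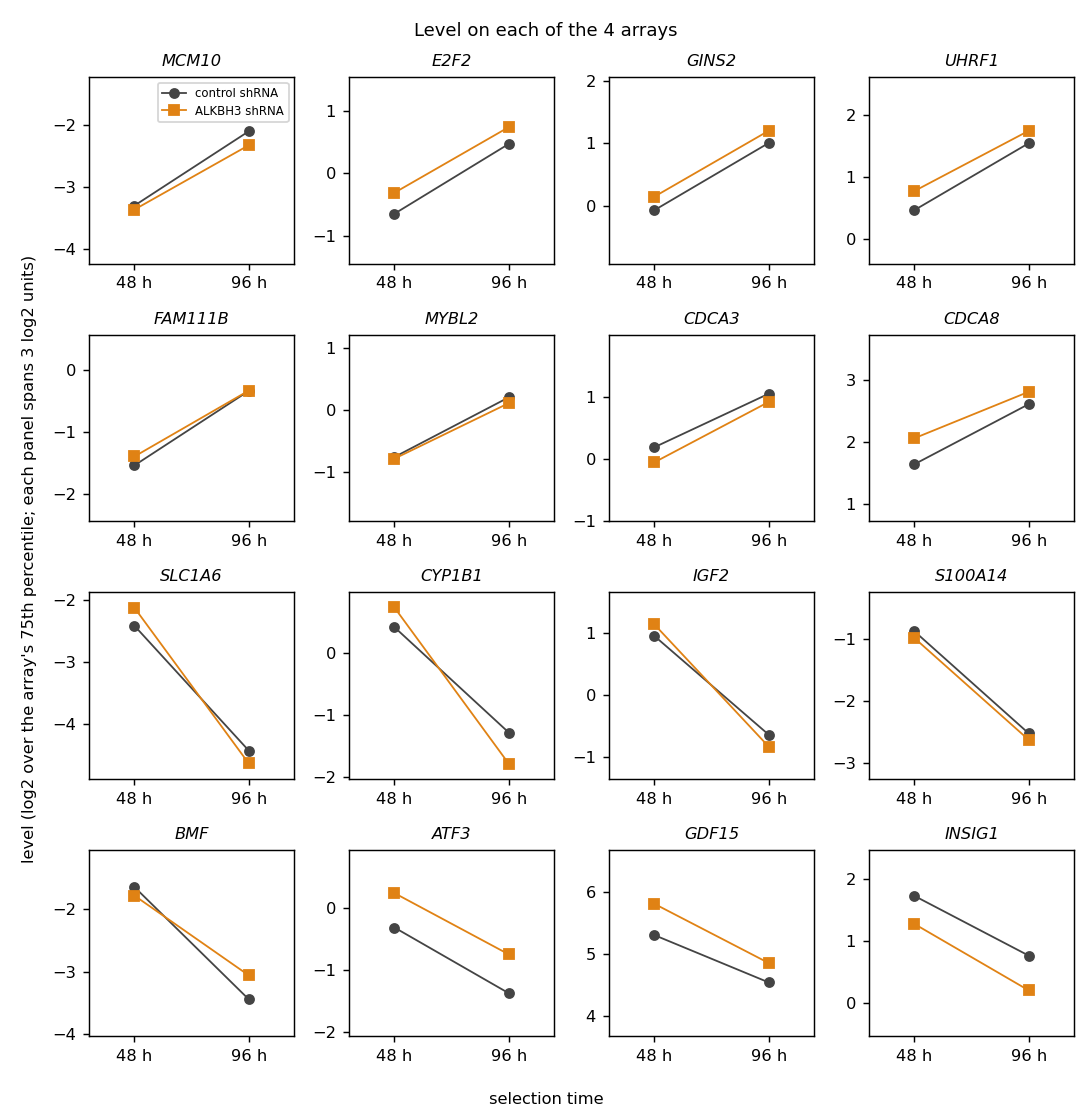
Each panel is 1 gene, with its level on the 4 arrays (log2 over the array's 75th percentile) against selection time, and a line for each shRNA. The first 8 genes, FAM111B and genes of replication and mitosis, rise in parallel under both shRNAs (MCM10 by 1.11 and CDCA8 by 0.86 on average). The last 8 fall (SLC1A6 with a difference of -2.25 and INSIG1 of -1.01).

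Histone genes rose in part. Of 61 replication-dependent histone genes tested, 16 rose and 2 fell (26.2% and 3.28%, against 5.84% and 6.94% of all genes). The median log2 difference was 0.10, against 0.64 for the replication genes. The counts of genes higher and lower were 24 and 7 under the normexp correction, 23 and 6 on the authors' normalized values and 14 and 0 after quantile normalization. H4 genes rose most often, 7 of 14 with a median of 0.50, followed by 4 of 12 H3 genes with a median of 0.33. Only 1 of 17 H2B genes rose and the H2B median was -0.08, while 3 of 15 H2A genes rose and 2 fell. Of the 3 H1 genes, H1-3 rose (0.58). The classes were not tested against each other.

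The histone genes with the largest differences came from all 4 core classes. H2AC13 had a level of -0.93 and -1.15 at 48 h and of 0.02 and 0.03 at 96 h (difference 1.07, SE 0.09, limma adjusted p 0.0236). H2BC7 went from -2.91 and -3.10 to -1.96 and -1.98, H3C2 from 1.29 and 1.11 to 2.06 and 2.17, and H4C13 from 3.56 and 3.20 to 4.38 and 4.17. H4C2, H4C3 and H4C4 rose by 0.89, 0.89 and 0.85. The 2 that fell were H2AC19 (-0.59) and H2AC25 (-0.42). Many of these genes have nearly the same coding sequence, so a probe may also have taken up RNA of its neighbours in the cluster, and values for single histone genes are uncertain. Replication-dependent histone mRNAs end in a stem loop in place of a poly(A) tail, and how well the linear amplification copied them is not given in the sources used here.

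**Figure D3:**
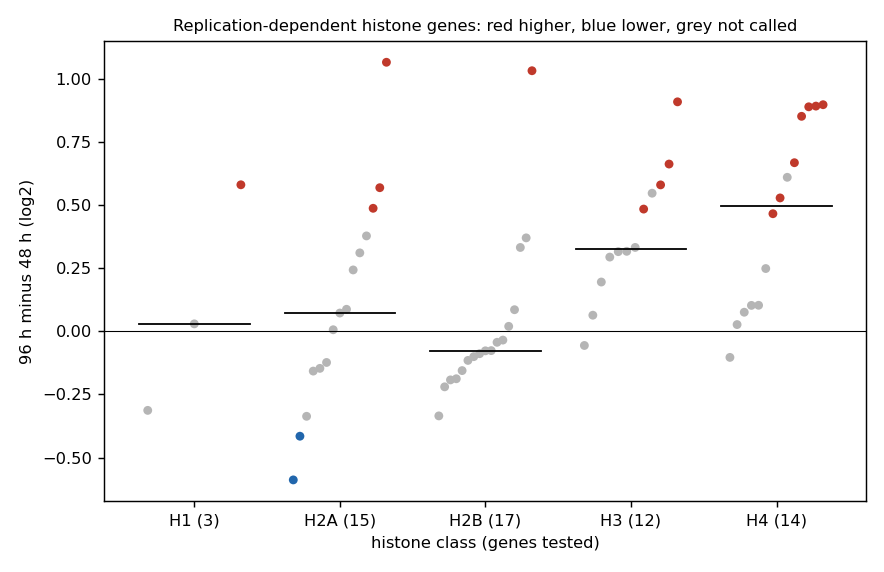
Each point is 1 of the 61 replication-dependent histone genes, placed by class, with its log2 difference of 96 h minus 48 h and a bar at the class median. Red points rose, blue points fell and grey points were not called. Most red points are in H3 and H4, and H2B has a median of -0.08.

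Among the replacement histones and the factors that process or deliver histones, 5 of 20 rose (25%, against 5.84% of all genes) and 0 fell. They included ASF1B (0.76), a chaperone that hands histones to the replication fork, the damage-linked variant H2AX (0.60), the variant H2AZ1 (0.47) and ZNF473 (0.44), a component of histone mRNA processing. H2AX stood at 3.02 and 2.61 at 48 h and at 3.49 and 3.33 at 96 h. CCAAT was in 47 of 56 promoters of replication-dependent histone genes (83.9%), the highest share of any list searched, and it is shown in capitals for H3C2 (chr6:26032100-26032199, minus strand) and H4C13 (chr6:27873535-27873634, minus strand, both GRCh38.p14).
H3C2: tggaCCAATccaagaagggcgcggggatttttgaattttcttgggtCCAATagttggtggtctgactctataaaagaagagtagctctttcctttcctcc
H4C13: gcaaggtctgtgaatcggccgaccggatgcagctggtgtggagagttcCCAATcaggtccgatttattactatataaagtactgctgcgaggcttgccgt

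Heat shock genes rose in part. Of 27 heat shock genes, 8 rose (29.6%, against 5.84% of all genes) and 0 fell, with a list median of 0.31. The constitutive chaperone HSPA8 went from 3.09 and 3.05 to 3.65 and 3.65 (difference 0.58), the co-chaperone CHORDC1 from 0.05 and -0.02 to 0.52 and 0.68, HSPA4L from -1.77 and -2.05 to -1.31 and -1.35, and the HSP70 to HSP90 adaptor STIP1 from -0.21 and -0.30 to 0.27 and 0.36. HSPH1 (0.53), FKBP4 (0.51), HSP90AA1 (0.50) and HSPA1L (0.47) also rose, whereas the inducible HSPA1A, HSPA1B, DNAJB1 and HSPB1 were not called. Other tested probes of HSP90AA1 had differences of 0.13 and 0.17. The heat shock element TTCNNGAANNTTC was in 4 of 24 promoters of this list (16.7%), with 0 matches for STIP1 and HSPA4L, and in 0.345% of tested genes. It is in capitals for CHORDC1 (chr11:90223050-90223149), where 3 matches overlap, and for HSPA8 (chr11:123062138-123062237, both on the minus strand of GRCh38.p14), where the match nearest the start is shown.
CHORDC1: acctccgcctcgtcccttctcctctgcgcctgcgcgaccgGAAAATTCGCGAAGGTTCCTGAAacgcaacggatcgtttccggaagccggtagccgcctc
HSPA8: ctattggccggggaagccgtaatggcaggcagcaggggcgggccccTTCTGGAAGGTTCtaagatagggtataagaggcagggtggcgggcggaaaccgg

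Of 38 ribosome biogenesis genes 3 rose, a share of 7.89% that is near the 5.84% of all genes. They were POLR1A (0.53), the large subunit of RNA polymerase I, BOP1 (0.50) and HEATR1 (0.49), which act in rRNA processing and transcription. All 38 differences were above 0, with a median of 0.22.

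**Figure D4:**
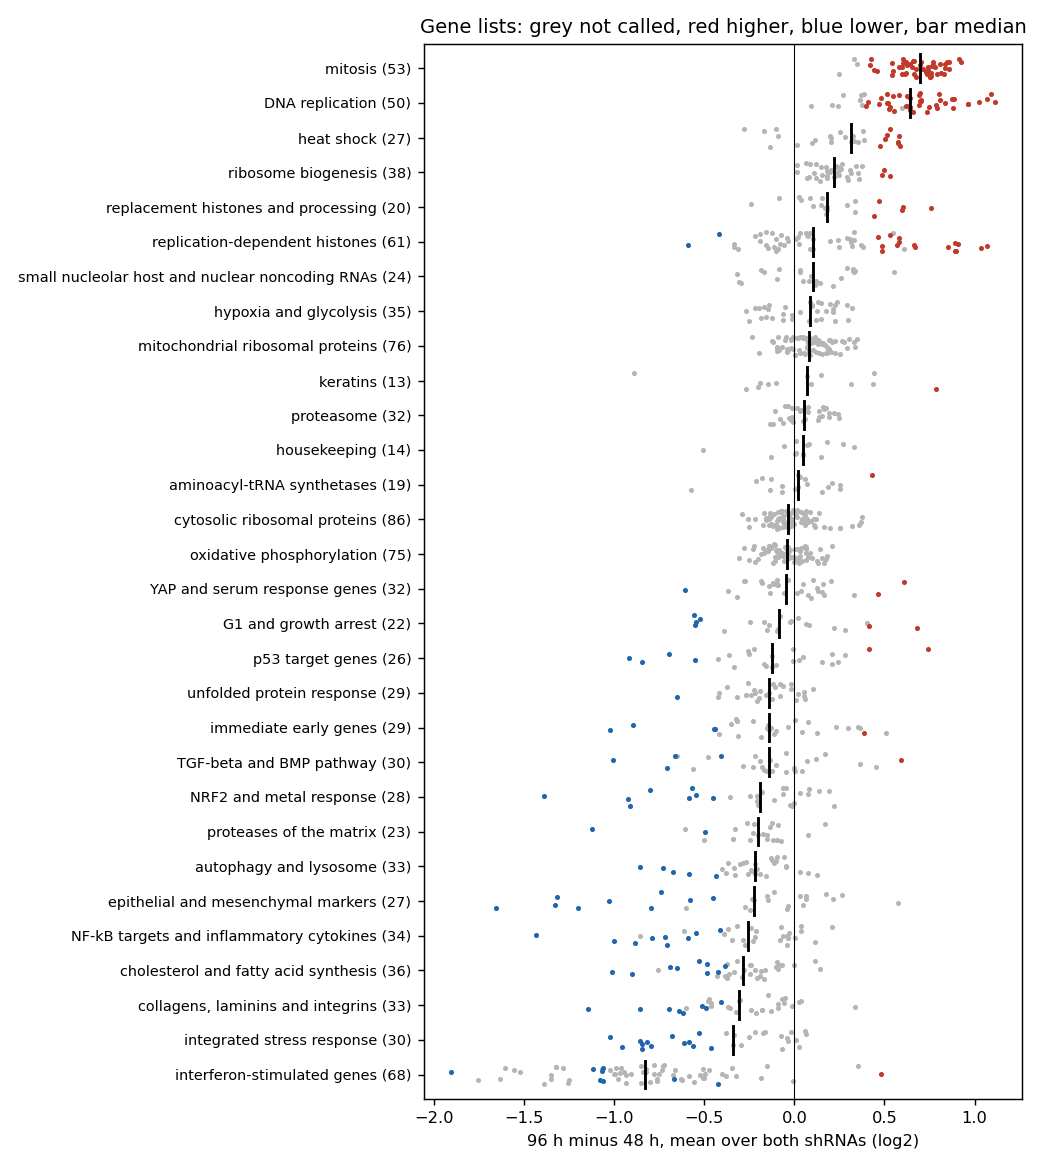
Each row is a gene list with the number of its genes tested, and each point is 1 gene's log2 difference of 96 h minus 48 h, averaged over both shRNAs. Red points rose, blue points fell, grey points were not called, and the black bar is the list's median. Mitosis and DNA replication sit apart on the right, with medians of 0.70 and 0.64. The integrated stress response, matrix and interferon lists lie on the left, while the heat shock list has a median of 0.31.

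Outside these groups, the genes with the largest rises mostly had a low signal. The largest was RIBC2, a protein of ciliary microtubules, with -3.09 and -3.08 at 48 h and -1.77 and -1.86 at 96 h (2.42-fold, limma adjusted p 0.0236). DHRS2, a short-chain dehydrogenase, rose 2.39-fold, the hair keratin-associated KRTAP4-9 and KRTAP2-3 rose 2.38-fold and 2.33-fold, and the membrane protein TMEM121B rose 2.31-fold. ESM1, a secreted proteoglycan, went from -4.73 and -4.42 to -3.59 and -3.27 (2.21-fold). FAM111B, a trypsin-like protease, went from -1.53 and -1.39 to -0.34 and -0.33 (2.19-fold). PSORS1C2 rose 2.15-fold. IL7R, the interleukin-7 receptor, rose 2.11-fold, but its levels overlapped between the times, with -2.86 and -1.03 at 48 h and -1.39 and -0.35 at 96 h, and the difference was seen within each shRNA (1.47 and 0.69). MCM10, E2F2 and GINS2 complete the 12. The share of genes called higher was 9.21% among the 3639 dimmest genes and 4.26% among the 3639 brightest, and the share called lower was 9.23% and 3.90%, so calls in both directions were more frequent among dim genes. The negative control spots were also brighter at 96 h. Under the normexp background correction these 12 genes stayed higher, TMEM121B by 0.62 and PSORS1C2 by 0.60 on the log2 scale in place of 1.21 and 1.10.

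The largest falls were larger than the largest rises and came from genes of varied function. SLC1A6, a glutamate transporter, had a level of -2.42 and -2.13 at 48 h and of -4.43 and -4.63 at 96 h, a 4.77-fold fall (log2 difference -2.25, SE 0.14, limma adjusted p 0.0236). UCA1, a long noncoding RNA found in carcinomas, went from -1.75 and -0.76 to -3.54 and -3.22 (4.36-fold). CYP1B1, a cytochrome P450 induced through the aryl hydrocarbon receptor, went from 0.41 and 0.73 to -1.28 and -1.78 (4.29-fold). In these 3 genes the 2 shRNAs lay within 1 log2 unit of each other at each time while the times stood farther apart.

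The growth factor IGF2 fell 3.42-fold on its brightest probe, from 0.95 and 1.14 to -0.64 and -0.83, while its other tested probe had a log2 difference of 0.16, and the collagen COL21A1 fell 3.46-fold. Genes of epithelial cells were among the 12 largest falls. OVOL1, a transcription factor of epithelial differentiation, fell 3.15-fold, and S100A14, a calcium-binding protein of epithelia, went from -0.88 and -0.99 to -2.52 and -2.62 (3.11-fold). MAL, a membrane raft protein of apical transport, fell 3.09-fold and the Lewis antigen fucosyltransferase FUT3 2.93-fold. ACOXL, an acyl-CoA oxidase relative, and FAM110C each fell 3.03-fold. BMF, a BH3-only protein that promotes apoptosis, went from -1.64 and -1.78 to -3.45 and -3.06 (2.91-fold).

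Genes of the integrated stress response fell in part, and none of the list rose. Of 30 tested, 13 fell and 0 rose (6.94% and 5.84% of all genes), and the median log2 difference was -0.34 (-0.31 with control and -0.44 with ALKBH3 shRNA). The transcription factor ATF4 at the head of the pathway fell (-0.46), as did its partner DDIT3, which encodes CHOP (-0.61). ATF3, a further factor of the pathway, stood at -0.32 and 0.24 at 48 h and at -1.37 and -0.75 at 96 h (difference -1.02, SE 0.08, limma adjusted p 0.0236). JDP2, a related repressor, went from -4.09 and -3.12 to -4.90 and -4.21 (-0.96). In both genes the levels of 48 h and 96 h did not overlap, as in 7662 of all 14556 genes. These are values of the brightest probe, and of the 3 other tested probes of ATF3 1 had a difference of -0.81 and the others of 0.22 and 0.04.

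Some targets of these factors also fell, and 17 of the 30 genes were not called. GDF15, a secreted stress cytokine, went from 5.30 and 5.81 to 4.54 and 4.86 (-0.86), and SESN2, which restrains mTORC1, from -2.20 and -1.91 to -3.04 and -2.76 (-0.84). CHAC1 (-0.84), which degrades glutathione, NUPR1 (-0.81), DDIT4 (-0.80), TRIB3 (-0.56), the cystine transporter SLC7A11 (-0.58) and the transsulfuration enzymes CBS (-0.68) and CTH (-0.53) fell as well. The amino acid response element, searched as TGATGNAA, was in 3 of 25 promoters of this list (12%) and in 1.59% of tested genes. JDP2, SESN2 and GDF15 had 0 matches to this element. ATF3 held it before its upstream start (chr1:212565170-212565269, plus strand, GRCh38.p14), where it is in capitals.
ATF3: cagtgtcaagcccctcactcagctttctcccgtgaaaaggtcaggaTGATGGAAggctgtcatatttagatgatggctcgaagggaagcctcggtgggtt

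Neighbouring stress lists moved less. In the unfolded protein response 1 of 29 genes fell, the endoplasmic reticulum co-chaperone DNAJB9 (-0.65), a share of 3.45% that is below the 6.94% of all genes. The bright chaperones CALR and HSP90B1 had differences of -0.08 and -0.11 that were not called. Of 26 p53 target genes 4 fell and 2 rose (15.4% and 7.69%, against 6.94% and 5.84% of all genes). TP53INP1 (-0.92), SESN2 and the BH3-only gene BBC3 (-0.70) fell, and POLH (0.74), a polymerase that copies past damaged bases, rose. Of 22 genes of G1 and growth arrest 4 fell and 2 rose (18.2% and 9.09%). The inhibitor CDKN1C (-0.55) and the antiproliferative genes BTG2 (-0.55) and TOB1 (-0.54) fell, and RBL1 (0.68), the retinoblastoma relative p107 and itself an E2F target, rose. The fall of BTG2 was not called under the normexp correction (-0.21).

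Of 29 immediate early genes, 4 fell and 1 rose (13.8% and 3.45%, against 6.94% and 5.84% of all genes). FOSB went from -4.49 and -4.92 to -5.38 and -5.83 (-0.90), ZFP36, which destabilises cytokine mRNAs, fell by 0.45 and JUNB by 0.44 on the log2 scale, and ATF3 is also on this list. KLF10 rose (0.39). Under the normexp correction JUNB had a difference of -0.20 and was not called. Of 33 autophagy and lysosome genes 5 fell (15.2%) and 0 rose, with 28 lower under each shRNA. CTSZ, a lysosomal cathepsin, went from 0.24 and 0.11 to -0.76 and -0.60 (-0.86), and WIPI1 (-0.73), GABARAPL1 (-0.67) and the sialidase NEU1 (-0.58) fell too.

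Genes of sterol metabolism, many of them targets of the sterol-sensing factor SREBP, fell in part. Of 36 genes of cholesterol and fatty acid synthesis and transport, 9 fell (25%, against 6.94% of all genes) and 0 rose, and the median was -0.29. INSIG1, the sterol-regulated anchor of SREBP, went from 1.73 and 1.28 to 0.77 and 0.21 (2.02-fold lower). Its levels at 48 h and 96 h did not overlap, as in 7662 of all 14556 genes. TM7SF2 (-0.69), a sterol reductase, SREBF1 (-0.49), the desaturase FADS2 (-0.49) and SC5D (-0.38) fell. The other tested probe of SREBF1 had a difference of -0.17. ABCG1 (-0.65) and MYLIP (-0.42), which are targets of the liver X receptors, fell too.

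Of 28 NRF2 and metal response genes, 8 fell (28.6%, against 6.94% of all genes) and 0 rose. AKR1B10, an aldo-keto reductase, went from -2.99 and -2.70 to -4.61 and -3.87 (2.62-fold lower). AKR1C1 (-0.91), AKR1C3 (-0.57) and HMOX1 (-0.54), which breaks down haem, fell, and so did the metallothioneins MT1M (-0.92) and MT1F (-0.80), which bind zinc and copper, and the zinc exporter SLC30A1 (-0.45). The metallothioneins MT1A, MT1B, MT1E, MT1H, MT1X and MT2A had differences between -0.21 and -0.11 and were not called. SLC7A11 is also on this list. The classic NRF2 targets NQO1, GCLM, TXNRD1 and SRXN1 were not called. The list's median was -0.36 with control and -0.04 with ALKBH3 shRNA, a difference that was not tested. Near-identical members of the AKR1C and metallothionein families may share probes, and their values are uncertain.

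Genes of epithelial junctions and identity were among those that fell. Of 27 epithelial and mesenchymal markers, 9 fell (33.3%, against 6.94% of all genes) and 0 rose. CDH1, the epithelial cadherin, went from -0.12 and 0.78 to -1.28 and -0.71 (2.51-fold lower), and ESRP1, an epithelial splicing factor, from -3.48 and -3.64 to -4.87 and -4.89 (2.49-fold lower). GRHL2 (-1.03), CLDN7 (-0.80), CDH3 (-0.74), OCLN (-0.58) and EPCAM (-0.45) fell, and so did OVOL1. The other tested probe of GRHL2 had a difference of -0.17. The ninth, SPARC, is a mesenchymal matrix protein and went from 0.73 and 0.27 to -0.07 and -1.33. The epithelial CLDN4 (-0.04) was not called, nor were the epithelial keratins KRT7 (0.15), KRT8 (-0.20), KRT18 (0.09) and KRT19 (-0.10). The mesenchymal genes VIM, CDH2, ZEB1, SNAI1 and SNAI2 were not called either. The fall of some epithelial members thus did not come with a called rise of the mesenchymal ones.

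Matrix and adhesion genes fell in part. Of 33 collagens, laminins and integrins 8 fell (24.2%, against 6.94% of all genes) and 0 rose. They included COL4A6, which went from -1.63 and -0.93 to -2.86 and -1.98 (-1.14) and COL4A5, its partner in basement membranes, from 1.32 and 1.57 to 0.47 and 0.70 (-0.86). COL8A1 (-0.70), ITGA1 (-0.64), LAMA3 (-0.62), ITGB5 (-0.51) and LAMB2 (-0.41) fell. Of 23 matrix proteases and inhibitors 2 fell, matrilysin MMP7 (-1.12) and the inhibitor TIMP1 (-0.50), a share of 8.70% that is near the background of 6.94%.

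Of 34 NF-kB targets and inflammatory cytokines, 9 fell (26.5%, against 6.94% of all genes) and 0 rose. The iron-binding LCN2 went from -1.61 and -1.71 to -2.92 and -3.27 (2.70-fold lower), CXCL8, a neutrophil chemokine, from -3.77 and -2.74 to -4.74 and -3.77, and IL6 from -3.92 and -3.20 to -4.87 and -4.02. IL24 (-0.79, well above background on 3 of 4 arrays), IL1B (-0.72), IL11 (-0.70), CXCL2 (-0.59), the complement component C3 (-0.55) and CXCL1 (-0.41) also fell. IL24 was not called under the normexp correction (-0.25). CXCL8 and IL6 had higher levels with ALKBH3 shRNA at each time and were lower at 96 h under each shRNA, and the groups of 48 h and 96 h met in CXCL8 and were apart in IL6.

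In the TGF-beta and BMP pathway 4 of 30 genes fell and 1 rose (13.3% and 3.33%, against 6.94% and 5.84% of all genes). The feedback gene PMEPA1 went from -0.26 and -0.62 to -1.55 and -1.35 (-1.01), the decoy receptor BAMBI (-0.71) and the ligand BMP4 (-0.66) fell, and the ligand TGFB2 rose (0.59), which was not called under the normexp correction (0.29). Among 32 YAP and serum response genes, AXL (0.61), a receptor kinase, and TEAD4 (0.46), a DNA-binding partner of YAP, rose, and NT5E (-0.60), the ectonucleotidase CD73, fell. These shares of 6.25% called higher and 3.12% called lower are near or below the background of 5.84% and 6.94%. TEAD4 was not called under the normexp correction (0.23). The 2 shRNAs had YAP list medians of opposite sign.

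Interferon-stimulated genes were the group whose fall was least alike under the shRNAs. Of 68 tested, 8 fell and 1 rose (11.8% and 1.47%, against 6.94% and 5.84% of all genes). Even so, 62 were lower at 96 h under each shRNA, and the median log2 difference was -0.83. That median was -0.39 with control and -1.30 with ALKBH3 shRNA. With ALKBH3 shRNA 51 of the 68 were at least 2-fold lower at 96 h, and with control shRNA 1 was, and the difference was larger in size with ALKBH3 shRNA for 66 of 68. These values describe single arrays and were not tested.

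IFIT1, which binds viral RNA, had a level of 3.64 and 5.57 at 48 h and of 2.90 and 4.15 at 96 h (difference -1.08, SE 0.18, limma adjusted p 0.0367), and the DNA sensor IFI16 went from -0.93 and 1.05 to -1.60 and -0.42. In both genes the ALKBH3 array of 48 h was the highest of the 4 and the control array of 96 h the lowest, and the groups overlapped. CXCL11, an interferon-induced chemokine, went from -5.24 and -3.27 to -6.53 and -5.78 and was well above background on 3 arrays. MX1 (-1.06), RIGI (-1.06), ISG15 (-0.67) and IRF9 (-0.42) also fell. The 1 gene called higher was SP100 (0.48 on its brightest probe), whose 2 other tested probes had differences of -0.71 and -0.58, and with the probes of a gene averaged 0 genes of the list rose.

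The size of the interferon result changed with the arrays used. The list median was -0.08 without the ALKBH3 array of 48 h and -1.70 without the control array of 48 h. These fits have no shRNA term, so both medians also take in the difference between the shRNAs, and the pair of control arrays alone gave the -0.39 above. The number called lower ranged from 0 to 62 over the alternatives, with 62 under normexp, 60 on the authors' normalized values and 3 after quantile normalization. The interferon response element, searched as TTTCNNTTTC, was in 27 of 54 promoters of the list (50%), with 0 matches for CXCL11, and in 2.52% of tested genes. IFIT1 (chr10:89392474-89392573, plus strand, GRCh38.p14) holds 2 of them side by side, in capitals.
IFIT1: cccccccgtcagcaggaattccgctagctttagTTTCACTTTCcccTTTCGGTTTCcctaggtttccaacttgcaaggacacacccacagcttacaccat

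**Figure D5:**
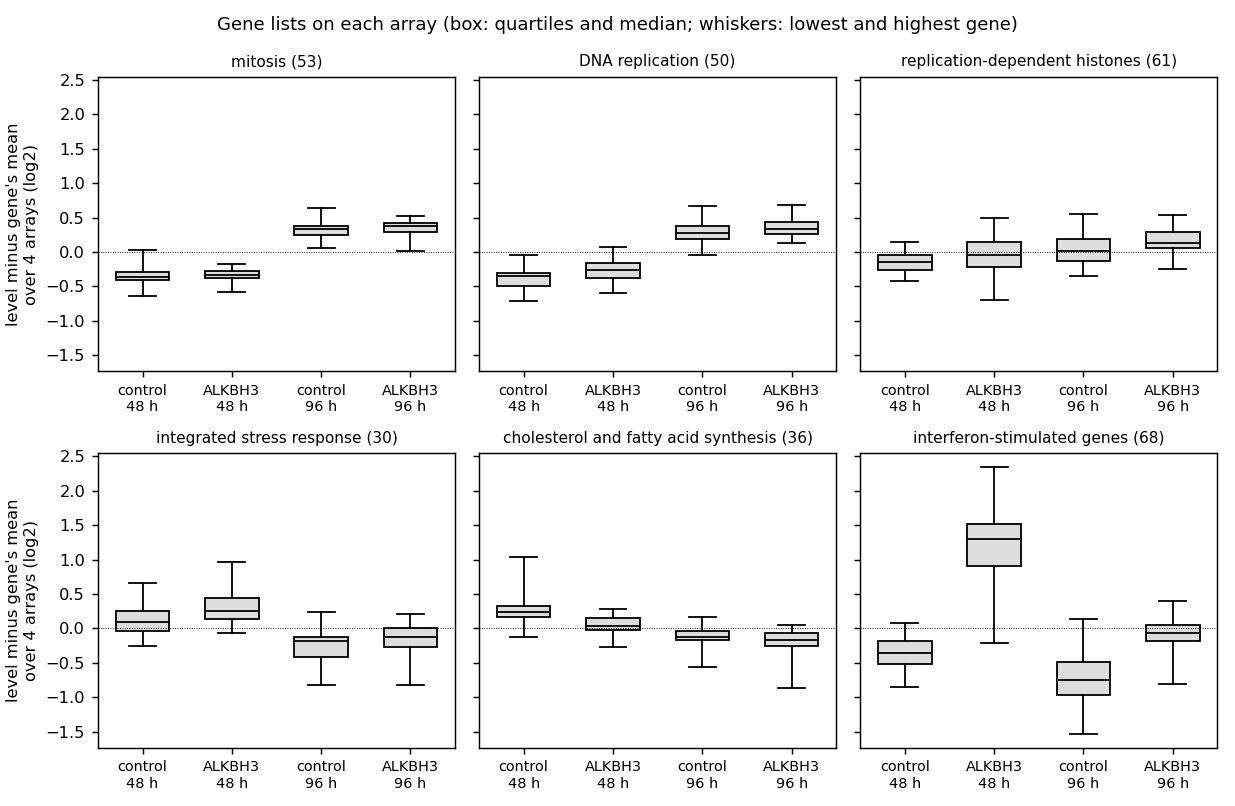
Each panel is a gene list and each box 1 array, showing each gene's level minus its own mean over the 4 arrays (log2), with quartiles, median and the lowest and highest gene. In mitosis and DNA replication both arrays of 96 h lie above both of 48 h (mitosis medians -0.36 and -0.34 against 0.33 and 0.38). Among interferon-stimulated genes the ALKBH3 array of 48 h stands highest (median 1.30) and the control array of 96 h lowest (-0.75).

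Large groups of constant function had 0 calls. None of 86 cytosolic ribosomal protein genes, 76 mitochondrial ribosomal protein genes, 75 genes of oxidative phosphorylation, 35 of hypoxia and glycolysis, 32 of the proteasome, 24 small nucleolar host and nuclear noncoding RNAs or 14 housekeeping genes passed the limma test, and their medians lay between -0.04 and 0.10. Their brightest members gave differences of 0.11 for RPS2, -0.12 for RPS24, -0.10 for MRPS16, -0.12 for MRPS6, -0.14 for COX6A1, -0.03 for ATP5F1E, 0.15 for SLC16A3, 0.15 for PGK1, 0.19 for PSMD2, -0.13 for PSMB4, -0.29 for RN7SK, 0.09 for ZFAS1 and 0.07 for ACTB. A miss of the threshold with 2 arrays a side does not show that these genes were equal. Of 19 aminoacyl-tRNA synthetases FARSB rose (0.43), a share of 5.26% beside 5.84% of all genes. The brightest, EPRS1 and QARS1, had differences of 0.06 and -0.07. Of 13 keratins KRT6B rose (0.79), a share of 7.69% that is near that of all genes. It is a keratin of stratified and activated epithelia, and KRT19 and KRT81 had differences of -0.10 and 0.31.

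Taken under each shRNA alone, with 1 array a time and no test, more genes fell than rose by at least 2-fold. With control shRNA 76 genes were at least 2-fold higher at 96 h (0.522%) and 144 at least 2-fold lower (0.989%), and with ALKBH3 shRNA 46 were higher (0.316%) and 277 lower (1.9%). TRIM54, SORCS1 and FRY, named here after their values were seen, were well above background on 3 arrays and not on the control array of 48 h, so the size of their difference with control shRNA is not given. With ALKBH3 shRNA their log2 differences were 0.30, 0.65 and 0.17. With ALKBH3 shRNA alone the largest fall was in the chemokine receptor CCR1 (-3.20, from -6.38 to -8.39 with control and from -2.64 to -5.84 with ALKBH3 shRNA, and well above background on 3 arrays), which limma called lower. BST2 (-2.66), TRIM22 (-2.60) and XAF1 (-2.58), all interferon-stimulated, followed with ALKBH3 shRNA, where control shRNA gave -0.85, -0.51 and -0.12, and limma did not call them.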

How the data were processed

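RNA of the 4 samples had been hybridised to single-colour Agilent arrays after linear amplification. The authors deposited spot intensities from Agilent Feature Extraction (version 10.7.3.1 per the file headers), background-subtracted and detrended within each array, with flags for spots well above background, non-uniform or saturated. They also deposited log2 values normalized between arrays with limma, used here as an alternative.

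Flagged spots (180 to 379 an array) were removed, log2 intensities were centred on each array's 75th percentile, and repeated spots were averaged into 1 value per probe. Probes were kept when 1 or both shRNAs had them well above background at 48 h and at 96 h, and the brightest such probe stood for its gene. limma 3.58.1 in R 4.3.3 (lmFit, eBayes) fitted time with shRNA as an additive term, leaving 1 residual degree of freedom, and genes were called at a Benjamini-Hochberg adjusted p below 0.05. Tested on simulated data, the fit recovered most changed genes but called more unchanged genes than this threshold allows, more so where gene variances departed from limma's prior. The shRNA term also serves as the replicate block, since the replicate number is the shRNA. With 2 arrays a time, precision is limited by their number.

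Named genes are the 12 largest rises and 12 largest falls among called genes that were well above background on all 4 arrays, and per list the 4 called genes with the largest difference or, with under 2 called, the 2 brightest. Other list members are named where they were called or belong to a described complex, after their values were seen. The comparison and the lists were chosen with earlier results of these data known. Some genes that this rule names are not reported here. Lists are described by counts and medians, with no test. Promoter sequences came from RefSeq (GRCh38.p14), 1 window of 250 bases a gene. Alternatives changed background correction, normalization, filter, probe summary, test and arrays left out.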

Additional observations from a re-analysis of the deposited data

Results flagged for a closer look

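Several medians and single genes had a difference of opposite sign under the control and the ALKBH3 shRNA. The design leaves no residual degrees of freedom for an interaction, so the difference between the shRNAs was not tested, and all of these values are small. The list medians were -0.021 and 0.083 (control and ALKBH3 shRNA) for aminoacyl-tRNA synthetases, -0.082 and 0.077 for YAP and serum response genes, -0.086 and 0.028 for cytosolic ribosomal proteins and -0.014 and 0.047 for keratins. The log2 differences were 0.039 and -0.098 for ATP5F1E, -0.021 and 0.14 for EPRS1, 0.026 and -0.22 for MRPS16, -0.26 and 0.021 for MRPS6, -0.23 and 0.090 for QARS1 and -0.24 and 0.0100 for RPS24.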

How the results depend on the processing

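The calls depend on how the spread is estimated. With no replicate block, that is without the shRNA term, limma called 0 genes higher and 0 lower (smallest adjusted p 0.131), the methods' t-test called 1 and 0 after Benjamini-Hochberg, and with no filter on dim probes the counts were 0 and 0 (smallest adjusted p 0.124, with 5220 of 19093 genes at an unadjusted p under 0.05). Leaving out 1 array at a time was possible only without the shRNA term, with the lone array assumed to vary like the other pair and the difference between the shRNAs left in the time difference, and gave 0 to 0 in each direction. The normexp correction gave 1478 higher and 2127 lower, of which 638 and 887 were also called in the main setting, normexp with quantile normalization 1758 and 2117, the authors' normalized values 1537 and 1969, quantile normalization 547 higher, and spike-in centring 1459 higher. A 2-fold change with an unadjusted p below 0.05 was met by 27 and 155 genes, and a 2-fold change under each shRNA by 11 and 81. The causes of these shifts were not tested.

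The 5 leading lists kept the sign of their medians in every setting. The mitosis median was 0.66 under normexp, 0.67 with normexp and quantile normalization, 0.72 with median centring, 0.72 with the percentile over detected probes, 0.72 with the percentile over probe means (an alternative added after seeing the data), 0.82 with spike-in centring and 0.68 with probes averaged. That of DNA replication was 0.62 under normexp, 0.66 under median centring, 0.66 and 0.66 under both other percentiles and 0.76 with spike-in centring. That of the replication-dependent histones was 0.15 under normexp, 0.15 with quantile normalization added, 0.15 on the authors' values and 0.22 with spike-in centring, and that of the integrated stress response -0.22 with spike-in centring. With 1 array left out the medians ranged from 0.67 to 0.75 (mitosis), 0.60 to 0.67 (DNA replication), 0.062 to 0.19 (replication-dependent histones), -0.43 to -0.22 (integrated stress response) and -1.70 to -0.080 (interferon-stimulated genes).

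Changes of sign were confined to results near 0 that were not called. Spike-in centring gave medians of 0.078 for oxidative phosphorylation and 0.037 for G1 and growth arrest, and the keratin median was -0.079 after quantile normalization and -0.10 with the filter on all 4 arrays. Spike-in centring gave 0.091 for ATP5F1E, 0.039 for CALR, 0.012 for HSP90B1, 0.019 for KRT19, 0.026 for MRPS16, 0.051 for QARS1 and 0.0038 for RPS24. Under normexp, normexp with quantile normalization and the authors' values in turn, ACTB was -0.047, -0.015 and -0.039, ATP5F1E 0.026, 0.066 and 0.055, QARS1 0.059, 0.036 and 0.037 and SLC16A3 -0.083, -0.089 and -0.098. With 1 array left out the ranges were -0.13 to 0.071 for ATP5F1E, -0.17 to 0.0099 for CALR, -0.0090 to 0.13 for EPRS1, -0.24 to 0.033 for KRT19, -0.27 to 0.084 for MRPS16, -0.35 to 0.11 for MRPS6, -0.19 to 0.055 for QARS1, -0.31 to 0.074 for RPS24 and -0.0025 to 0.19 for ZFAS1. Of the 91 named genes that were called, 5 were not called under normexp, 12 after quantile normalization and 6 with spike-in centring.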
